A study of Rattus norvegicus with 31 samples.

Results

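The genes followed here are 7 genes of the sarcomere, the contractile unit of heart muscle: the myomesins Myom1 and Myom2, titin (Ttn), and the genes Ldb3, Tcap, Nebl and Actn2 of the Z-disc. They were chosen as a gene group with earlier results of these data known and were taken by gene symbol, with no threshold on a value. All 7 were found among 46063 genes assembled by the authors from their own reads and among 19100 RefSeq genes. Their transcripts numbered 62 of the 91969 assembled transcripts and 33 of the 39592 RefSeq transcripts.

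A sarcomere runs from one Z-disc to the next, with the M-band at its centre. Titin is a giant elastic protein that spans from the Z-disc to the M-band and gives heart muscle much of its passive stiffness, and its I-band is spliced into stiffer and more compliant forms, mainly under the control of the splicing factor Rbm20. At the M-band the myomesins crosslink the thick filaments and bind titin, and at the Z-disc alpha-actinin (Actn2) crosslinks the thin filaments, with titin, telethonin (Tcap), Cypher (Ldb3) and nebulette (Nebl) attached.

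The left ventricles came from untreated, naive male rats, and total RNA was sequenced after removal of ribosomal RNA. BN-Lx (BN-Lx/Cub, a normotensive strain) and SHR (SHR/OlaIpcv, the spontaneously hypertensive rat) are the progenitors of the HXB/BXH recombinant inbred panel, and each had 4 animals sequenced in batch 1. The 12 HXB (Ipcv) and 9 BXH (Cub) strains, mosaics of both progenitor genomes from reciprocal crosses, had 1 library each in batches 2 and 3. All are inbred animals without an engineered allele, and the library of 1 animal stands for each recombinant strain. SHR animal 4 was sequenced again in later batches, and these libraries were used to show technical spread, to build a library score and in a fit with the mean of both libraries of that animal. Whether animals shared a litter is not stated, so p-values measure the spread between these animals.

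The deposited values are log2 levels and no counts come with them, so depth and counting error are unknown. The cardiomyocyte marker genes were high in every library. On the log2 scale, the summed level of the 7 measured of 9 markers lay between 20.40 and 20.66 in BN-Lx and between 20.33 and 20.51 in SHR. Of the 6 skeletal muscle markers measured among RefSeq genes, only Actn3 lay under a log2 level of 1. The summed level of that list was 14.73 to 16.02 in HXB and 15.46 to 16.19 in BXH, so skeletal muscle markers were not absent. The median log2 value of 70 spike-in RNAs was 6.26 to 7.31 in BN-Lx and 5.82 to 6.49 in SHR. Centring each library on its spike-ins moved the median SHR minus BN-Lx difference over all genes from 0.01 to 0.62, so differences below are relative to the other genes of a library.

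The comparison of SHR with BN-Lx asks which of the 7 genes differ between the progenitors of the panel. Myom1, Myom2 and Nebl were lower in SHR and Tcap was higher, while Ttn, Ldb3 and Actn2 did not pass the test. A difference was called when limma's adjusted p over all genes was under 0.05 (two-sided, Benjamini-Hochberg). Of the 7 genes 4 were called, beside 14.3% of all assembled genes. With 1 higher and 3 lower, the counts stand beside 7.38% of all genes higher and 6.95% lower. The median difference of the 7 was -0.20, beside 0.01 over all genes, on the log2 scale. In 4 of the 7 genes (Myom1, Myom2, Nebl and Actn2) the ranges of the strains did not overlap, beside 20.6% of all genes. In bulk tissue, fewer cells of a type and less RNA per cell cannot be told apart.

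**Figure D1:**
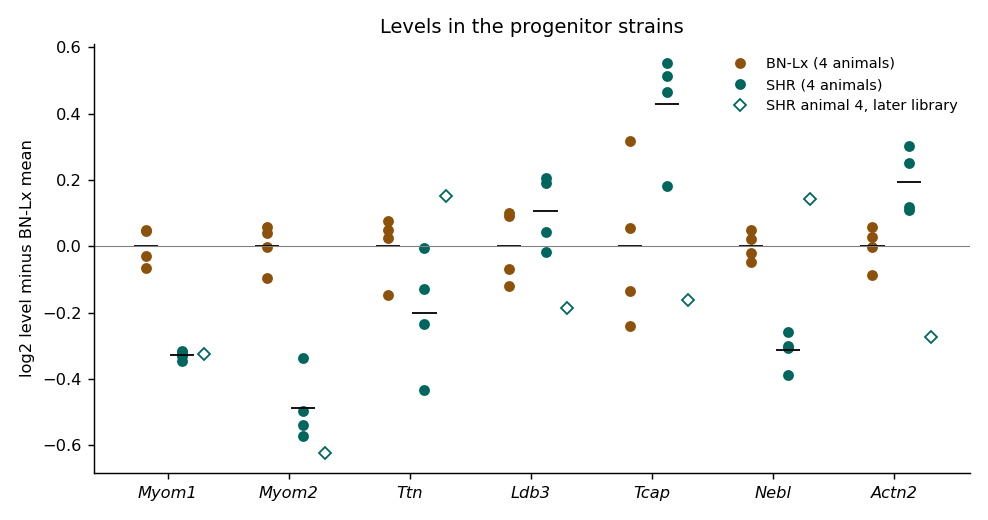
Log2 level of each gene minus the BN-Lx mean (vertical axis) for the 4 BN-Lx and 4 SHR animals (filled points, bars at the means) and the later library of SHR animal 4 (open diamond). All SHR points of Myom1, Myom2 and Nebl sit below all BN-Lx points, and the diamond of Nebl lies 0.53 above the batch 1 library of the same animal. With spike-in centring the mean differences of Myom1, Myom2, Ttn and Nebl turn positive.

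Myom2 encodes the myomesin that is abundant in the adult heart, and it lies on chromosome 16 at 74520148 to 74592658, minus strand (rn7). Its log2 level was 17.03, 16.99, 16.90 and 17.05 in the BN-Lx animals and 16.66, 16.50, 16.46 and 16.42 in the SHR animals. Every SHR animal was lower than every BN-Lx animal. The difference was -0.49 (SE 0.07, n = 4 and 4, limma adjusted p = 0.000659), and the level on the linear scale fell by 28.6%. The later library of SHR animal 4 had 16.37, against 16.42 in its batch 1 library. This call was lost only with spike-in centring, where the difference was 0.12 (limma adjusted p = 0.796), which is -0.50 relative to the median of all genes.

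Myom1, the other myomesin, lies on chromosome 9 at 110916156 to 111057802, plus strand. Its level was 15.00, 14.93, 14.89 and 15.00 in BN-Lx and 14.64, 14.61, 14.63 and 14.62 in SHR. The ranges did not overlap, and the SHR animals lay closer together (SD 0.01) than the BN-Lx animals (SD 0.06). Myom1 was 0.33 lower in SHR on the log2 scale (difference -0.33, SE 0.06, n = 4 and 4, limma adjusted p = 0.00240). The later library of SHR animal 4 differed by 0.01 from its batch 1 library. The direction turned with spike-in centring (0.28, or -0.34 relative to the median of all genes), quantile normalization gave -0.19, and the call was lost without the intensity trend in limma (adjusted p = 0.0769) and with all 29 libraries in the fit (adjusted p = 0.0911).

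Nebl, whose nebulette protein ties the thin filament to the Z-disc, lies on chromosome 17 at 80108828 to 80466380, minus strand. It had log2 levels of 13.84, 13.74, 13.81 and 13.77 in BN-Lx and 13.53, 13.48, 13.49 and 13.40 in SHR. All SHR animals were below all BN-Lx animals, by -0.31 on average (SE 0.06, n = 4 and 4, limma adjusted p = 0.00412). The later library of SHR animal 4 had 13.93, above every BN-Lx animal, and the 0.53 between the libraries of that animal exceeds the difference between the strains. Without SHR animal 4 Nebl stayed called, and the call was lost with the library score described with the families, at about the same size (-0.29, limma adjusted p = 0.146), with all 29 libraries in the fit (limma adjusted p = 0.102) and without the intensity trend (limma adjusted p = 0.0915). Spike-in centring turned the difference to 0.30, or -0.32 relative to the median of all genes.

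Tcap encodes telethonin, which caps the amino-terminal ends of titin at the Z-disc, and it is a short gene on chromosome 10 at 83381722 to 83382931, plus strand. Its log2 level was 12.91, 13.36, 12.80 and 13.10 in BN-Lx and 13.59, 13.51, 13.55 and 13.22 in SHR. The ranges overlapped, through BN-Lx animal 2 and SHR animal 4. Tcap was 0.43 higher in SHR (SE 0.12, n = 4 and 4, limma adjusted p = 0.0274). In the later library of SHR animal 4 it had 12.88, or -0.35 against its batch 1 library, below all BN-Lx animals but animal 3. The call was lost in 9 of 17 alternatives, among them the fits without BN-Lx animal 1 or 3 (limma adjusted p = 0.0760 and 0.0814) and without SHR animal 1, 2 or 3 (limma adjusted p = 0.0682, 0.0675 and 0.0690). It was also lost with the mean of both libraries of SHR animal 4 (0.39, limma adjusted p = 0.0862).

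Actn2, the muscle alpha-actinin, lies on chromosome 17 at 58143334 to 58210622, plus strand. Its levels were 15.80, 15.83, 15.71 and 15.86 in BN-Lx and 16.10, 15.91, 15.92 and 16.05 in SHR. No SHR animal was as low as the highest BN-Lx animal, and the difference of 0.19 (SE 0.07, n = 4 and 4) did not pass the test (limma adjusted p = 0.0743). Actn2 was called in 1 of 17 alternatives, after quantile normalization (0.18, limma adjusted p = 0.0457). The difference was 0.13 with the mean of both libraries of SHR animal 4 (limma adjusted p = 0.315). It ran from 0.046 with the library score described with the families (limma adjusted p = 0.852) to 0.80 with spike-in centring (limma adjusted p = 0.0561). The later library of SHR animal 4 had 15.52, below all BN-Lx animals.

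Titin lies on chromosome 3 at 61649572 to 61924917, minus strand. Its log2 level was 20.82, 20.77, 20.60 and 20.80 in BN-Lx and 20.31, 20.62, 20.74 and 20.51 in SHR. The ranges overlapped, and the difference of -0.20 (SE 0.10, n = 4 and 4, limma adjusted p = 0.217) was not called. It was -0.12 without SHR animal 1, and the later library of SHR animal 4 had 20.90, above all BN-Lx animals. Ldb3 encodes Cypher (ZASP), a PDZ-LIM protein that binds alpha-actinin. The assembled gene, on chromosome 16 at 9854976 to 9944024 (minus strand), carries the names Ldb3 and Opn4, but its Opn4 transcript made up no more than 0.0338% of the transcript sum in any progenitor library. The level of Ldb3 was 14.62, 14.78, 14.57 and 14.79 in BN-Lx and 14.73, 14.67, 14.88 and 14.89 in SHR, with overlapping ranges. The difference was 0.11 (SE 0.08, n = 4 and 4, limma adjusted p = 0.395), and it was 0.065 without BN-Lx animal 3 and 0.057 with the mean of both libraries of SHR animal 4.

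Per kilobase of transcript, Myom2 (14.63 ± 0.07, SD, n = 4) was highest in BN-Lx on the log2 scale. Actn2 (14.21 ± 0.05), Ttn (14.17 ± 0.10), Tcap (12.91 ± 0.29), Myom1 (12.49 ± 0.09) and Nebl (10.78 ± 0.08) followed in this order. Ldb3 gave 12.89 ± 0.16, which is too low. Exons of PRN7.71T0282244 and PRN7.71T0282235 were counted more than once (3100 and 9958 bases, against 1702 and 5131 without repeats). The place of Ldb3 relative to Tcap is therefore not given. Actn2 and Ttn were neighbours that did not differ beyond their spread. In SHR, Myom2 (14.11 ± 0.16, SD, n = 4) lay below Actn2 (14.40 ± 0.12).

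Among the assembled Myom1 transcripts, 1 held every exon of the most abundant and a single added exon. The most abundant assembled transcript, PRN7.71T0101242, had 37 exons, and PRN7.71T0101241 held these and an extra exon, the 18th of 38, of 291 bases at chr9:110988318-110988608 (rn7, plus strand). The length is a multiple of 3, so the exon would keep the reading frame. Myom1 is known for an alternative exon that codes for the EH segment of the embryonic heart form, and whether the exon found here is that exon was not read, because the genome was not used here.

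The extra-exon transcript held 3.23%, 1.06%, 0.186% and 0.175% of the Myom1 transcript sum in the BN-Lx animals and 10.2%, 9.38%, 11.9% and 10.6% in the SHR animals. The ranges stood well apart, at 1.16% ± 1.44 in BN-Lx and 10.5% ± 1.05 in SHR (SD, n = 4 each). On the log2 scale the share was 4.18 higher in SHR, which did not pass the test over all transcript shares (limma adjusted p = 0.0689). Without BN-Lx animal 1, the highest of its strain, that test was passed (limma adjusted p = 0.0174).

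The level of the same transcript was 10.09, 8.30, 5.79 and 5.81 in BN-Lx and 11.30, 11.11, 11.44 and 11.31 in SHR on the log2 scale. BN-Lx varied far more than SHR. The difference of 3.79 (SE 0.86, n = 4 and 4, limma adjusted p = 0.0383) was called, while the call was lost in 9 of 12 alternatives, among them each fit without a single library except BN-Lx animal 1 (limma adjusted p up to 0.0922). PRN7.71T0101242, by contrast, was lower in SHR, at 14.91, 14.72, 14.73 and 14.86 in BN-Lx and 14.37, 14.30, 14.20 and 14.31 in SHR. Its difference was -0.51 (SE 0.08, limma adjusted p = 0.00729, and 0.142 without the intensity trend).

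In the 21 recombinant strains the share of the extra-exon transcript ran from 0.851% through a median of 4.74% to 8.76%. In 9 strains (4 HXB and 5 BXH) it lay at or below the highest BN-Lx animal, and in the other 12 it lay between the highest BN-Lx and the lowest SHR animal. The lower limit is a single library, BN-Lx animal 1 at 3.23%, as the other BN-Lx animals lay at or below 1.06%. The progenitors were sequenced in batch 1 and the strains in batches 2 and 3, so this sorting also crosses batches. The widest gap between neighbouring strains, from 2.65% to 4.70%, divides the strains at the same place. The later library of SHR animal 4 had 8.68%, against 10.6% in its batch 1 library. The share of a RefSeq transcript, XM_039083799.1, followed it across the 21 strains (Pearson r = 0.99, Spearman rho = 0.98), with both values taken from the same libraries and the exons of the RefSeq transcript not compared. A mixture model placed 8 and 13 strains in separate groups in both tables, with a gain in the fit criterion (BIC) over a single group of 0.71 and 0.86, which is small.

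**Figure D2:**
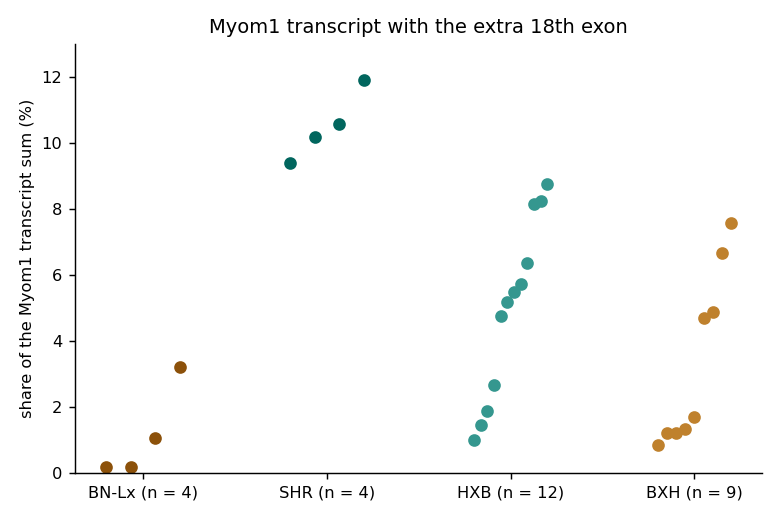
Share of the Myom1 transcript sum held by the transcript with the extra exon (vertical axis, percent) in each animal of BN-Lx and SHR and each HXB and BXH strain (points, 1 library each). The 4 SHR animals lie from 9.38% to 11.9%, above all BN-Lx animals, and the strains fall from 0.851% to 2.65% and from 4.70% to 8.76%.

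Among all transcripts of the 7 genes, 10 of 62 were called between SHR and BN-Lx, 4 higher and 6 lower, beside 5.53% of all assembled transcripts. The median difference was -0.22, beside 0.01 over all transcripts. None of the 60 shares of genes with several transcripts was called by limma, beside 2.08% of all shares, while 15 had an unadjusted p under 0.05. The single transcripts of Tcap (0.53, limma adjusted p = 0.105) and Actn2 (0.19, limma adjusted p = 0.220) were not called. Each was called in 1 of 12 alternatives, that of Actn2 after quantile normalization (0.31, limma adjusted p = 0.0268).

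**Figure D3:**
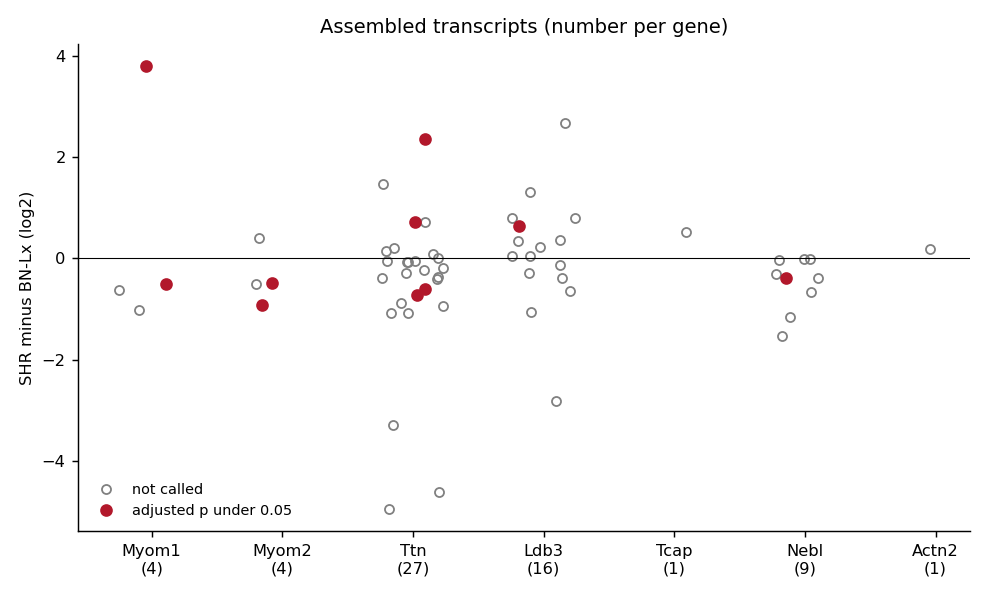
SHR minus BN-Lx difference (vertical axis, log2) of each assembled transcript, with genes along the horizontal axis and the number of transcripts below each name. Filled red points passed the test. They comprise 2 transcripts of Myom1, 2 of Myom2, 4 of Ttn, 1 of Ldb3 and 1 of Nebl, and the highest is the Myom1 transcript with the extra exon at 3.79.

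The 4 Myom2 transcripts each had 37 exons and differed at their ends. PRN7.71T0138392 and PRN7.71T0138393 had first exons of 19 and 141 bases that the most abundant transcript, PRN7.71T0138394, lacked, and PRN7.71T0402750 had a first exon of 160 and a last exon of 312 bases of its own. PRN7.71T0138394 had levels of 15.98, 16.01, 15.94 and 16.07 in BN-Lx and 15.19, 15.10, 14.91 and 15.12 in SHR. Its difference of -0.92 (SE 0.08, n = 4 and 4, limma adjusted p = 0.000349) stayed called in all 12 alternatives.

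PRN7.71T0402750 fell by 0.48 (limma adjusted p = 0.0419), a call lost in 9 of 12 alternatives, among them each fit without a single library except SHR animal 1 (limma adjusted p up to 0.116). PRN7.71T0138392, which was not called in level (difference 0.40, limma adjusted p = 0.290), held 17.02%, 12.2%, 11.3% and 12.3% of the Myom2 sum in BN-Lx and 26.7%, 24.8%, 28.1% and 20.1% in SHR. The shares did not overlap, and their difference of 0.92 on the log2 scale did not pass the test (limma adjusted p = 0.0596). In the later library of SHR animal 4 the share was 34.8%, against 20.1% in its batch 1 library. The libraries of a single animal thus lay further apart than the lowest and highest SHR animals of batch 1.

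The 27 assembled titin transcripts had 190 to 336 exons. PRN7.71T0433785 was lower in SHR, with 15.32, 15.41, 15.29 and 15.32 in BN-Lx against 14.70, 14.59, 14.67 and 14.49 in SHR. Its ranges lay apart by more than the spread within either strain (difference -0.72, SE 0.07, limma adjusted p = 0.000871). PRN7.71T0433839 was also lower (-0.61, limma adjusted p = 0.00821), while the later library of SHR animal 4 had 15.94, above all BN-Lx animals and against 15.01 in its batch 1 library. Without the intensity trend PRN7.71T0433839 (limma adjusted p = 0.103) and PRN7.71T0433777 (limma adjusted p = 0.0770) were not called. PRN7.71T0433777 (0.72, limma adjusted p = 0.00783) and PRN7.71T0433779 (2.35, limma adjusted p = 0.0147) were higher. Each of these held a small part of titin, at most 3.69% of the transcript sum in any progenitor library. Transcripts that share most of their exons were divided by the authors' quantification, so the split between them is uncertain.

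Of the titin transcripts 4 had 190 to 192 exons and 23 had 246 to 336. The shorter class, chosen after the exon numbers were seen, made up 36.2%, 33.1%, 32.5% and 33.5% of the titin sum in BN-Lx and 27.5%, 30.7%, 30.0% and 28.7% in SHR. The ranges did not overlap, and the means differed by -4.59 percentage points, given as a description without a test. In the later library of SHR animal 4 the share was 32.6%, against 28.7% in its batch 1 library, so the libraries of a single animal differed by nearly as much. The shorter class held a median of 32.5% in HXB (26.9% to 38.1%) and 29.1% in BXH (26.7% to 36.9%), with overlapping ranges.

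Of Ldb3, PRN7.71T0487430 was higher in SHR, with 10.09, 10.01, 10.21 and 10.07 in BN-Lx and 10.85, 10.58, 10.75 and 10.75 in SHR. The ranges lay apart (0.64, SE 0.11, limma adjusted p = 0.0101, and 0.0805 without the intensity trend), but the later library of SHR animal 4 had 10.14, within the BN-Lx range. In the progenitors the transcript held 4.602% to 7.22% of the Ldb3 sum. The most abundant Ldb3 transcript, PRN7.71T0282242, was not called (0.35, limma adjusted p = 0.304). Of Nebl, PRN7.71T0144042, which held 78.7% to 83.7% of the gene's sum, was lower (-0.39, SE 0.08, limma adjusted p = 0.0286). That call was lost in 9 of 12 alternatives, among them the fits without BN-Lx animal 1, 3 or 4 or SHR animal 2, 3 or 4 (limma adjusted p 0.0686 to 0.0914). In the later library of SHR animal 4 this transcript had 13.63, above all BN-Lx animals.

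The comparison of HXB with BXH asks whether the reciprocal families differ, with the strain as the replicate and sequencing batch as a covariate. Ttn and Nebl were higher in HXB and Actn2 was lower, so 3 of the 7 genes were called, beside 36.3% of all RefSeq genes. Of all genes 18.5% were higher in HXB and 17.8% lower. The median difference of the 7 was -0.10, beside -0.01 over all genes, on the log2 scale.

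**Figure D4:**
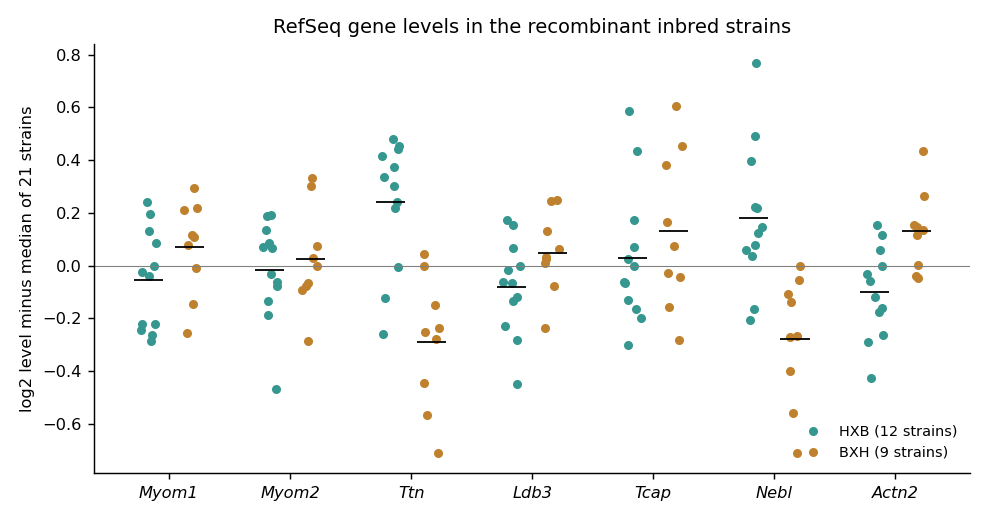
RefSeq gene log2 level minus the median of the 21 strains (vertical axis) for 12 HXB and 9 BXH strains (points) with family means (bars). Ttn and Nebl are higher in most HXB strains and Actn2 is lower in 7 of 12, whereas the families overlap widely for the other 4 genes. With spike-in centring Myom1, Myom2, Ldb3, Tcap and Actn2 become higher in HXB.

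Titin had log2 levels from 20.18 through a median of 20.76 to 20.92 in HXB and from 19.73 through 20.19 to 20.49 in BXH. In 9 of 12 HXB strains it was higher than in every BXH strain. HXB was 0.53 higher (SE 0.13, n = 12 and 9, limma adjusted p = 0.00314), and 0.20 higher after quantile normalization. Nebl ran from 13.17 through 13.51 to 14.14 in HXB and from 12.67 through 13.11 to 13.38 in BXH, with 10 of 12 HXB strains above all BXH strains (0.47, SE 0.10, limma adjusted p = 0.00176). For both genes the highest strain was HXB13/Ipcv and the lowest BXH9/Cub.

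Actn2 ran from 15.66 through 16.00 to 16.24 in HXB and from 16.04 through 16.23 to 16.52 in BXH. It was lower than in every BXH strain in 7 of 12 HXB strains. The difference was -0.23 (SE 0.07, n = 12 and 9, limma adjusted p = 0.0190), and it was not called after quantile normalization (-0.06, limma adjusted p = 0.435). The range of Myom1 was 14.59 to 15.12 in HXB and 14.62 to 15.17 in BXH (difference -0.12, limma adjusted p = 0.238). Myom2 lay between 16.43 and 17.09 in HXB and between 16.61 and 17.23 in BXH (-0.04, limma adjusted p = 0.726). These genes did not pass the test, nor did Ldb3 (-0.13, limma adjusted p = 0.175) or Tcap (-0.10, limma adjusted p = 0.537). In the assembled gene table Myom1 (-0.28, limma adjusted p = 0.0205) and Ldb3 (-0.26, limma adjusted p = 0.0291) were called lower in HXB, Nebl was 0.29 higher and Actn2 was lower at -0.40. The median spike-in value was 5.66 to 6.62 in HXB and 6.14 to 7.68 in BXH. Spike-in centring shifted the median of all genes to 0.54 and turned Actn2 to 0.32, Myom1 to 0.43, Myom2 to 0.51, Ldb3 to 0.42 and Tcap to 0.45, which relative to that median lie at -0.23, -0.12, -0.04, -0.12 and -0.09.

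Batches 2 and 3 both held strains of both families. In batch 3 alone the differences were 0.67 for Ttn (limma adjusted p = 0.00323), 0.44 for Nebl (limma adjusted p = 0.00537) and -0.28 for Actn2 (limma adjusted p = 0.0280). In batch 2 alone, with 3 HXB and 3 BXH strains, they were 0.20, 0.54 and -0.12. No gene was called there by limma, and 1561 genes, 1 of the 7 among them, had an unadjusted p under 0.05.

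The level of these genes moved with a measure of the library. The libraries of SHR animal 4 differed from each other across 10045 well measured genes by -0.64 (5th percentile) to 0.61 (95th percentile) on the log2 scale. A score was therefore given to each library, the regression slope of its departure from the average library along that difference, over 10048 genes other than the 7. It was -0.58 to 0.61 in HXB (median 0.19) and -0.87 to 0.13 in BXH (median -0.38). The later library of SHR animal 4 had 0.86, and its distance from the batch 1 library of that animal is fixed by how the score is made. Over the 21 strains Ttn followed the score with Pearson r = 0.91 (0.91 within HXB and 0.74 within BXH), Nebl with 0.89 (0.83 and 0.75), Actn2 with -0.79 (-0.61 and -0.74) and Ldb3 with -0.65 (-0.62 and -0.54). All values of a point come from 1 library. Myom1 (-0.21), Myom2 (-0.28) and Tcap (-0.21) followed it less.

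With the score as a covariate the calls over all genes went from 6940 to 6, and the differences were 0.13 for Ttn (limma adjusted p = 0.788), 0.08 for Nebl (limma adjusted p = 0.819) and -0.01 for Actn2 (limma adjusted p = 0.979). The score was made from gene levels of these same libraries, so some loss of calls over all genes can follow from how it was made. The score and the family overlap in these libraries and their parts in the difference cannot be told apart. For the progenitors the score was 0.14 to 0.25 in BN-Lx and -0.22 to 0.13 in SHR. The batch 1 library of SHR animal 4 helps to define the score and is also among the libraries compared. With the score as a covariate Myom2 stayed called at -0.58 (limma adjusted p = 0.0185), and Myom1 kept its size but not its call (-0.33, limma adjusted p = 0.0911).

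**Figure D5:**
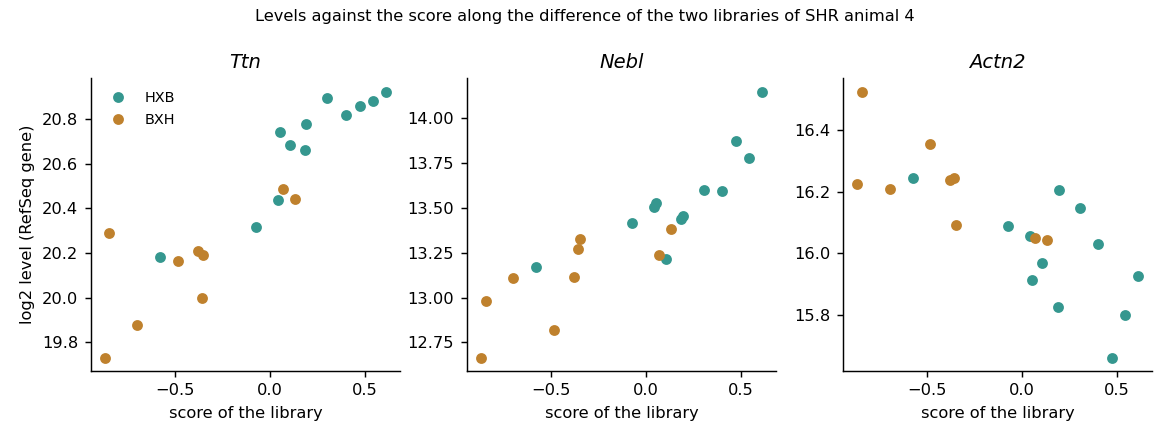
RefSeq gene log2 level of Ttn, Nebl and Actn2 (vertical axes) against the score of each library along the difference of the libraries of SHR animal 4 (horizontal axes), for 12 HXB and 9 BXH strains (points). Ttn and Nebl rise along the score (r = 0.91 and 0.89) and Actn2 falls (r = -0.79), and most BXH strains lie at low scores.

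Promoters were read from RefSeq with a view to Ttn, Nebl and Actn2, the genes called between the families. None of these calls remained with the library score as a covariate, and shared control of these genes was not tested. A promoter was given for 5 of the 7 genes (Myom1, Ttn, Ldb3, Nebl and Actn2), as 250 bases before and 50 after the annotated start. The 3 printed are from the build GRCr8, which is not the rn7 of the data, at chr3:82332061-82332360 (minus strand), chr17:85135247-85135546 (minus strand) and chr17:62834805-62835104 (plus strand). Motif matches are in capitals.
Ttn: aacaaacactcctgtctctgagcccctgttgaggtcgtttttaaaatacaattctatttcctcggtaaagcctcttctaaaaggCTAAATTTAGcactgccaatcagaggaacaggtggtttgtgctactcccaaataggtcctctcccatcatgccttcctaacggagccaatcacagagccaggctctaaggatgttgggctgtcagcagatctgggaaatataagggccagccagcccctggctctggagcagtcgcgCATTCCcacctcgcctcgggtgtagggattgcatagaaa
Nebl: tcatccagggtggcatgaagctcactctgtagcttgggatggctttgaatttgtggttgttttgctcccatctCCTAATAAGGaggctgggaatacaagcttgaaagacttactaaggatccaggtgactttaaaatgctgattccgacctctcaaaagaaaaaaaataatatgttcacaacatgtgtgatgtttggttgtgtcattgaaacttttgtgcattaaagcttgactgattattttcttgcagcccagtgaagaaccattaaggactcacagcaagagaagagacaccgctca
Actn2: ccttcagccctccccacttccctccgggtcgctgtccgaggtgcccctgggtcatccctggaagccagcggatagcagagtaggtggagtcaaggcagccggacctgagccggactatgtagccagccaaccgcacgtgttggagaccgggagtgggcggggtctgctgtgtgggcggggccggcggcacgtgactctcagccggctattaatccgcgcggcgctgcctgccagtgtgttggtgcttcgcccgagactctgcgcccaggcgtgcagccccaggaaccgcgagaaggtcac

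On both strands 5 motifs were searched. They were the core promoter box with the letters TATAAA, the M-CAT site of TEAD factors with the letters CATTCC, the site of the GATA factors with the letters AGATAA, and the CArG box of SRF and the MEF2 site, which are given by name only. The last pair are both rich in A and T and can overlap. The Ttn promoter held a MEF2 match from -166 to -157 and an M-CAT match from 11 to 16, counted from the start, and the Nebl promoter held a CArG match from -177 to -168. None of the 5 motifs was found in the Actn2 window or in that of Myom1, and the Ldb3 window held a CArG match from -52 to -43. Of 33469 RefSeq promoters of 300 bases, 3.29% held the MEF2 site, 14.2% M-CAT, 1.64% CArG, 14.2% the core promoter box and 11.6% the GATA site. The matches are a description of these letters, and the starts used in the ventricle were not read. Assembled Nebl transcripts began at different places (rn7, minus strand). The most abundant, PRN7.71T0144042, began at 80226786, and PRN7.71T0492319, with 0.62% of the sum in BN-Lx, began at 80466380. Which of these starts the Nebl window belongs to was not read, so it may not be the promoter of most Nebl RNA.

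Of the RefSeq transcripts of the 7 genes 10 of 33 were called between the families, 7 higher in HXB and 3 lower, beside 19.0% of all RefSeq transcripts. Their median difference was 0.15, beside 0.01 over all transcripts. No share of the 31 was called by limma, beside 4.64% of all shares, and 6 had an unadjusted p under 0.05. Of the 10 titin transcripts 6 were called and higher in HXB, from 0.36 (XM_039106393.1, limma adjusted p = 0.0401) to 1.09 (XM_039106431.1, limma adjusted p = 0.0266). The 10 matched transcripts summed to 3.23 to 3.53 below the titin gene value on the log2 scale, so most of titin lay outside them. The main transcript of Nebl, NM_001389243.1, was 0.54 higher in HXB (limma adjusted p = 0.00462), and that of Actn2, NM_001170325.1, was lower (-0.25, limma adjusted p = 0.0279). XM_006252645.4 of Ldb3 was lower (-0.41, limma adjusted p = 0.0303). After quantile normalization the calls of NM_001170325.1 (-0.10, limma adjusted p = 0.233) and XM_006252645.4 (-0.31, limma adjusted p = 0.0759) were lost. Without the intensity trend that of XM_039106393.1 was lost (limma adjusted p = 0.0509).

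Myom2 gave no difference as a gene, but its transcript NM_001169141.1 was lower in HXB, from 14.27 through 14.67 to 15.14 in HXB and from 14.70 through 15.03 to 15.46 in BXH. The ranges overlapped (difference -0.37, SE 0.10, n = 12 and 9, limma adjusted p = 0.0124). This transcript held 24.6% to 35.3% of the sum of the 3 Myom2 transcripts, and its share was not called (-0.20, limma adjusted p = 0.0891).

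Across the 21 strains, centred within batch, Ldb3 and Actn2 varied together (Pearson r = 0.90, Spearman rho = 0.89), as did Ttn and Nebl (0.82 and 0.87). Nebl and Actn2 (-0.73 and -0.75) and Ttn and Actn2 (-0.65 and -0.73) went opposite ways, and Myom2 and Ldb3 had r = 0.69. The points share libraries and the score above, so these values are descriptions. Among the r of all genes with the first gene of a pair, Ttn and Nebl stood at percentile 94.6. Nebl and Actn2 stood at 8.3, Ttn and Actn2 at 14.1, Ldb3 and Actn2 at 99.8 and Myom2 and Ldb3 at 99.9. Many other genes thus went with or against Ttn and Nebl as strongly. Within BXH, r was 0.48 for Ttn and Nebl and -0.22 for Ttn and Actn2, against 0.75 and -0.50 within HXB. The median r over the 21 pairs was -0.14 in the RefSeq table and 0.27 in the assembled table. Without the 2 strains farthest from the median of the first gene, r was 0.85 for Ldb3 and Actn2, 0.78 for Ttn and Nebl and 0.45 for Myom2 and Ldb3.

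The genes most like each member by Pearson r over the 21 strains were, for Ttn, Macf1 (0.97, a giant cytoskeletal linker), Smg1 and Ppip5k2. For Nebl they were Trip11 (0.98), Erbin and Zfp182, for Actn2 Cpt1b (0.97, the muscle gatekeeper of mitochondrial fatty acid import), Scap and Dhx34, and for Ldb3 Dnaaf5 (0.94), Carm1 and Flnc (0.93, the muscle filamin). For Myom2 they were Dusp27 (0.80), Mllt11 and Flnc (0.75), for Myom1 Tfap4 (0.82), Palld (0.82, the actin-binding palladin) and Odf2, and for Tcap Dbp (0.77, a clock-controlled transcription factor), Cited2 and LOC120103619. The likeness of the Ttn, Nebl and Actn2 patterns to these genes was closer than that of Tcap, at 0.71 to 0.77. These genes were picked as the highest r among 19100 RefSeq genes over only 21 strains, so high values come partly from the search. Ttn, Nebl and Actn2 also followed the library score, and the part of the score in the likeness was not tested.

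A mixture model found more than 1 group of strains in 1 of the 7 genes, beside 15.6% of all RefSeq genes. This was Tcap, with 16 strains at a lower and 5 at a higher level and a BIC gain of 1.41. Among RefSeq transcripts of the 7 genes 8 of 33 had more than 1 group, beside 24.2% of all, and among their shares 12 of 31, beside 24.1% of all.

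Other genes of the sarcomere were taken as lists. Of the M-band and titin partners 21 were measured between the progenitors, 4 were higher in SHR and 3 lower (33.3% called, beside 14.3% of all assembled genes), and their median difference was 0.13 on the log2 scale. Myom3, a further myomesin, rose from 9.59 ± 0.04 to 10.57 ± 0.07 (SD, n = 4 each), a difference of 0.98 (limma adjusted p = 3.02e-06), in contrast to the lower Myom1 and Myom2. Ankrd1, a stretch-responsive protein of the titin I-band, rose by 0.55 (limma adjusted p = 0.000935).

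Of 31 Z-disc genes 11 were higher and 6 lower (54.8% called, beside 14.3% of all genes, median 0.14), with Csrp3, the muscle LIM protein, 0.51 higher (limma adjusted p = 0.000434) and Cryab, a chaperone of the Z-disc, lower (-0.62, limma adjusted p = 0.000438). Of 10 thin filament genes 1 was higher, Acta1 (0.85, limma adjusted p = 0.00146), and 4 were lower, with Tpm2 at -1.29 (limma adjusted p = 4.19e-07), so that 50% were called, beside 14.3% of all genes, and the median was -0.00. None of 5 thick filament genes was called by limma and 1 had an unadjusted p under 0.05 (median -0.20). The skeletal muscle list, to which Acta1 belongs, had a summed log2 level of 14.61 to 14.95 in BN-Lx and 15.09 to 15.84 in SHR, with 1 of 4 measured markers higher and 1 lower. Of 7 endothelial markers 5 were higher in SHR and 1 lower, and of 7 measured pericyte and smooth muscle markers 3 were higher. Lower in SHR were 2 of 7 cardiomyocyte markers, 3 of 6 macrophage markers and 3 of 4 mesothelial markers, with none of these lists holding a higher one. Of 7 lymphocyte markers 1 was higher in SHR and 2 were lower, and their summed log2 level was 8.23 to 8.31 in BN-Lx and 7.57 to 7.75 in SHR. The part of these cell types in the differences was not tested.

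Regulators of titin and Ldb3 splicing were measured in 13 genes, of which 15.4% were called, close to the 14.3% of all genes. Lower in SHR were 2 of them, Celf2 (-0.42, limma adjusted p = 0.00155) and Mbnl1 (-0.24, limma adjusted p = 0.0414). Rbm20 was not called (0.05, limma adjusted p = 0.783), and the median was -0.02. Of 14 transcription factors of the sarcomere program 2 were higher, Gata4 (0.41, limma adjusted p = 0.0230) and Mef2d (0.31, limma adjusted p = 0.0430), with a median of 0.05 and a called share of 14.3%, the same as over all genes.

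Between the families 23 M-band and titin partners were measured, with 2 higher in HXB and 7 lower (median -0.10). The called shares of this list (39.1%) and of the Z-disc list (35.1%) lay near the 36.3% of all RefSeq genes. Sqstm1, an autophagy adaptor of the titin kinase signalling complex, was lower (-0.42, limma adjusted p = 0.000402), as was Ckm, the muscle creatine kinase of the M-band (-0.41, limma adjusted p = 0.00142). Of 37 Z-disc genes 6 were higher and 7 lower (median -0.07), with Nexn, an actin-binding protein of the Z-disc, at 0.72 (limma adjusted p = 0.000310) and Cryab at -0.50 (limma adjusted p = 0.000338).

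The 36.3% of all RefSeq genes called stand beside 68.8% of the splicing regulators, 42.9% of the thick filament, 50% of the thin filament and 47.1% of the transcription factor genes. Of 16 splicing regulators 8 were higher in HXB and 3 lower (median 0.12), among them Hnrnpu (0.34, limma adjusted p = 0.000310) and Ptbp2 (0.35, limma adjusted p = 0.000614), whereas Rbm20 was not called (0.01, limma adjusted p = 0.946). Of 7 thick filament genes 1 was higher, Myh7b (0.17, limma adjusted p = 0.0228), and 2 lower, with Myl3 at -0.47 (limma adjusted p = 0.000380), and the median was -0.10. Of 10 thin filament genes 2 were higher and 3 lower (median -0.06), with Acta1 at -0.55 (limma adjusted p = 0.00833) and Tnni3 at -0.28 (limma adjusted p = 0.00568). Of 17 transcription factors 3 were higher and 5 lower (median -0.05), with Mef2a at 0.33 (limma adjusted p = 0.000532) and Nkx2-5 at -0.47 (limma adjusted p = 0.000942). Of 9 cardiomyocyte markers 1 was higher in HXB and 4 were lower, with summed log2 levels of 21.27 to 21.76 in HXB and 21.48 to 21.87 in BXH. Macrophage markers were lower in HXB in 4 of 7 genes and mesothelial markers in 3 of 5, and the part of these cell types in the differences was not tested.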

How the data were processed

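RNA was extracted from left ventricle with RNeasy kits and sequenced as rRNA-depleted stranded total RNA (Illumina TruSeq). Build rn7 and the tools RSEM 1.3.1, StringTie 1.3.5, HISAT2 2.1.0, DESeq2, Bowtie2 2.3.4.3 and cutadapt 1.9.1 are listed in the submitters' processing notes without their roles. The deposited values are on a log2 scale, with the transformation and the counts not given, so depth is unknown. Shares were taken from 2 raised to these values and depend on that scale. BN-Lx columns were found in the assembled tables, which were therefore used for the progenitors. Each symbol was represented by its assembled gene with the highest mean, and for Ldb3 by the gene named Ldb3 and Opn4. For Ttn and Nebl, 2 assembled genes each carry the name.

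Tests used limma 3.58.1 in R 4.3.3 (lmFit, eBayes with an intensity trend, two-sided, Benjamini-Hochberg, threshold 0.05) over all features of a table: 4 BN-Lx against 4 SHR libraries without covariates, and 12 HXB against 9 BXH strains with batch as a covariate. Modes used mclust 6.1.1 with 1 to 3 components. Other steps used Python 3.11.15, numpy 2.4.6 and matplotlib 3.10.9. The fits of assembled genes, assembled transcripts and RefSeq genes were run on simulated data, and the other fits were not. The simulated noise was independent between genes, so it does not hold the library score. RefSeq symbols were matched for 28504 of 39592 transcripts.

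The members and the gene lists were chosen with earlier results of these data known. Named were the 7 genes, for each its highest transcript and the called ones (up to the 6 smallest p), its 3 most like genes, and from each list the 2 called genes with the smallest p. Rbm20, Myom1 transcript XM_039083799.1 and the Myom2 transcripts PRN7.71T0138392 and PRN7.71T0138393 were named after their values were seen. A permutation p planned for the correlations is left out for the same reason. The later libraries of SHR animal 4 could not be assigned to batch 2 or 3. Added after seeing the data were the library score as a covariate, the modes of transcripts and the classes of titin transcripts.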

Additional observations from a re-analysis of the deposited data

Results flagged for a closer look

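Of 62 groups of 4 to 10 libraries examined for a single value far from the rest, 1 stood out. The level of Myom2 transcript PRN7.71T0402750 in SHR animal 1 was 14.71 on the log2 scale, while the other SHR animals lay between 14.23 and 14.31. The gap to the nearest animal was 0.844 of the range of the group. Chance puts about 5% of groups past the limit.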

How the results depend on the processing

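Depth is unknown, so no counting error could be given. Called assembled genes between the progenitors (6603) ranged from 4377 to 6114 when a library was left out, lowest without SHR animal 4, and were 3916 with all 29 libraries, 11154 with spike-in centring and 1443 with the library score. Called transcripts (5083) ranged from 3018 to 3722 and called shares (1196) from 736 to 882 without a library, so fewer libraries gave fewer calls in each. Replicate numbers did not pair the animals: deviations of animals with the same number had correlations of 0.19, -0.38, -0.17 and 0.15. With a replicate block there were 5437 called genes, 1893 transcripts and 137 shares, and of the named transcripts PRN7.71T0101241, PRN7.71T0402750, PRN7.71T0433777, PRN7.71T0433839, PRN7.71T0487430 and PRN7.71T0144042 were not called, while no call of the 7 genes changed.

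Between the families, 6940 of 19100 RefSeq genes were called. There were 0 in batch 2 alone, where 1561 had an unadjusted p under 0.05, 16686 with spike-in centring and 6 with the score. In the assembled table, which holds more genes, 12871 of 46063 were called. The median correlation of the genes reversed to 0.27 in the assembled table. With spike-in centring the difference between progenitors reversed to 0.28 for Myom1, 0.12 for Myom2, 0.41 for Ttn and 0.30 for Nebl, and that between families to 0.43 for Myom1, 0.51 for Myom2, 0.42 for Ldb3, 0.45 for Tcap and 0.32 for Actn2. The score reversed Ttn between progenitors (0.034) and Myom2 (0.064) and Ldb3 (0.069) between families. Batch 2 alone reversed Myom1 (0.060), Myom2 (0.035) and Tcap (0.093), and quantile normalization Myom2 (0.15), XM_039094595.1 (0.074), NM_001271277.1 (0.014) and, between progenitors, PRN7.71T0433784 (0.012). Without a library, the share difference of PRN7.71T0402750 ranged from -0.00067 (without BN-Lx animal 4) to 0.082. The cause of these changes was not tested.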
